A study of Homo sapiens with 12 samples.

Results

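The genes of the integrated stress response and of amino acid supply, 40 in all, were followed by RNA sequencing in MOLM14 acute myeloid leukemia cells. They were taken as the rows of the deposited count table whose Ensembl identifier carries one of 40 chosen gene symbols, and each symbol matched 1 of the 61487 identifiers in that table. By role they comprised 7 stress factors, 3 brakes on growth and redox state, 6 serine and one-carbon enzymes, 6 other amino acid enzymes, 6 amino acid transporters, 3 secreted or receptor genes and 9 aminoacyl-tRNA synthetases. A total of 39 of the 40 had enough counts to be tested. NUPR1, a small stress-induced chromatin protein, had 31 counts in the 12 libraries together and was not tested.

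MOLM14 is a human cell line that grows in suspension, and every cell used here carried an shRNA against RIP140, the retinoic acid receptor coregulator encoded by NRIP1, which is switched on by doxycycline (DOX). There were 4 groups of 3 libraries: untreated cells, cells given all-trans retinoic acid (ATRA) at 1 µM for 48 h, cells given DOX at 50 ng/mL, and cells given both agents, called combined here. The submitters describe the replicates as biological, and the labels do not say whether the line is a clone or a pool. No group carried another shRNA with DOX, so an effect of DOX itself and one of the shRNA cannot be told apart. In bulk samples, fewer cells expressing a gene and less RNA per cell cannot be told apart either.

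In the integrated stress response, kinases that sense missing amino acids, unfolded protein, heme deficiency or viral RNA phosphorylate the initiation factor eIF2, which lowers general translation while favouring that of the transcription factor ATF4. ATF4, usually paired with a CEBP protein, drives genes for amino acid import, serine and asparagine synthesis and tRNA charging, together with feedback genes such as TRIB3 and PPP1R15A. This control acts on translation and phosphorylation. The counts here therefore measure the mRNA of these genes and factors, not eIF2 phosphorylation, ATF4 protein or ATF4 activity.

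The 250 bases before each RefSeq transcription start (GRCh38.p14) were searched on both strands for TGATGNAA, a core of the site that ATF4 binds with CEBP partners, and for TGACGTCA, the palindromic cyclic AMP response element that ATF family proteins can bind. RefSeq windows were matched for 34 of the 40 genes, 53 windows in all; SLC7A11, PYCR1, SHMT2, NUPR1, PSPH and ALDH1L2 were not matched. TGATGNAA stood in 6 of the 53 windows (11.3%), from AARS1, ASNS, ATF3, CHAC1, GARS1 and SLC1A5, and in 3.14% of all 35116 windows. TGACGTCA stood in 1 window, that of PPP1R15A (1.89%), and in 1.65% of all windows. The longer form TGATGCAAT, which contains the core, stood in none of the 53 and in 0.216% of all. Shown here are 30-base stretches from the 3 genes with a TGATGNAA match that changed in at least 1 comparison, and from PPP1R15A, the member that rose most in the combined group against ATRA. They are written 5′ to 3′ on the gene's strand with the match in capitals; a match given as its reverse complement lies on the other strand.
CHAC1: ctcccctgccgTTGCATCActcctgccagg
AARS1: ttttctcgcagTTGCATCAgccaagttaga
GARS1: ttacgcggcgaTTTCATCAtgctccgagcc
PPP1R15A: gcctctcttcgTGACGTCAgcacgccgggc
The stretches lie at chr15:40953251-40953280 (plus strand, CHAC1), chr16:70289675-70289704 (minus, AARS1), chr7:30594834-30594863 (plus, GARS1) and chr19:48872352-48872381 (plus, PPP1R15A). The matches start 209 (CHAC1), 187 (AARS1), 33 (GARS1) and 58 (PPP1R15A) bases before the RefSeq start. ASNS, ATF3 and SLC1A5 also hold the core and were called in no comparison. A match describes these letters only; binding was not measured.

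Library totals ran from 2685984 to 19358619 counts, the smallest being DOX replicate 3. NRIP1 was at 59.7, 58.9 and 53.3 CPM (counts as a rate of the effective library size, the usual unit for comparing libraries) in untreated cells and at 19.2, 15.0 and 15.7 CPM with DOX. Combined cells were at 15.9, 20.9 and 20.0 CPM against 38.4, 41.1 and 51.9 CPM with ATRA, so each DOX library lay under each library without it. The blood-cell genes FLT3, SPI1, PTPRC and CD33 had means of 265, 176, 137 and 37.2 CPM in untreated cells. The monocytic genes LYZ, ITGAM and CSF1R ranged from 188 to 228, 26.9 to 30.9 and 5.51 to 8.31 CPM in these cells. The monocyte and macrophage genes CD14 and CD68 had means of 0.181 and 0.437 CPM there. CD3E, PF4, EPCAM and COL3A1, defining genes of other cell types, were at 0 in all 12 libraries. The list of 5 fibroblast, epithelial and endothelial genes summed to 91.2 to 104 CPM in untreated, 174 to 187 with ATRA, 135 to 155 with DOX and 218 to 254 in combined libraries, almost all from KRT18 and PECAM1; its part in the results was not tested. Counts on the mitochondrial ribosomal RNA genes made up 2.54 to 4.60% of untreated libraries, 2.09 to 2.74% with ATRA, 1.02 to 2.18% with DOX and 1.23 to 2.02% in combined ones. Combined replicate 1 stood apart from replicates 2 and 3 for several immediate-early genes and members, as described with PPP1R15A, and for the myeloid genes LYZ (144 against 70.6 and 67.9 CPM) and MPO (260 against 158 and 171 CPM); the part of this difference in the results was not tested.

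Untreated MOLM14 cells expressed most of these genes. Per kilobase of exon, the highest mean levels were those of DDIT4 (228 CPM per kb), ATF4 (208), SHMT2 (113) and AARS1 (90.9), and the lowest were those of CBS (0.435), ASNS (0.347), GDF15 (0.192) and NUPR1 (0.0164). ASNS, asparagine synthetase and a classical ATF4 target, had 166 counts in the 12 libraries together. Of its exon length, 44.6% is shared with AC079781.5 on the same strand, so reads may have been dropped or split in counting, and its level is uncertain.

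ATRA alone was associated with a lower level of a large share of these genes. Of 39 tested members, 17 fell and 3 rose, with edgeR's quasi-likelihood test and a Benjamini-Hochberg adjusted p below 0.05 over all genes. That is 51.3% of the members, beside 28.9% of all 16104 tested genes (13.2% lower and 15.7% higher). The 2 shares are not matched for expression level, and the members were chosen with earlier results of these data known. The median log2 change was −0.25 over the members and −0.01 over all genes. The falls included PHGDH and PSAT1 of serine synthesis, 4 transporters and the ATF4 mRNA, and the 3 rises were GDF15, WARS1 and MTHFD2. In 19 of the 20 called members the ATRA and untreated libraries did not overlap, the exception being CHAC1. The calls come from these same libraries, so this is no separate support. The share without overlap over all called genes was not counted. For 16 of the 20, none of the 14 alternative settings ended the call.

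**Figure D1:**
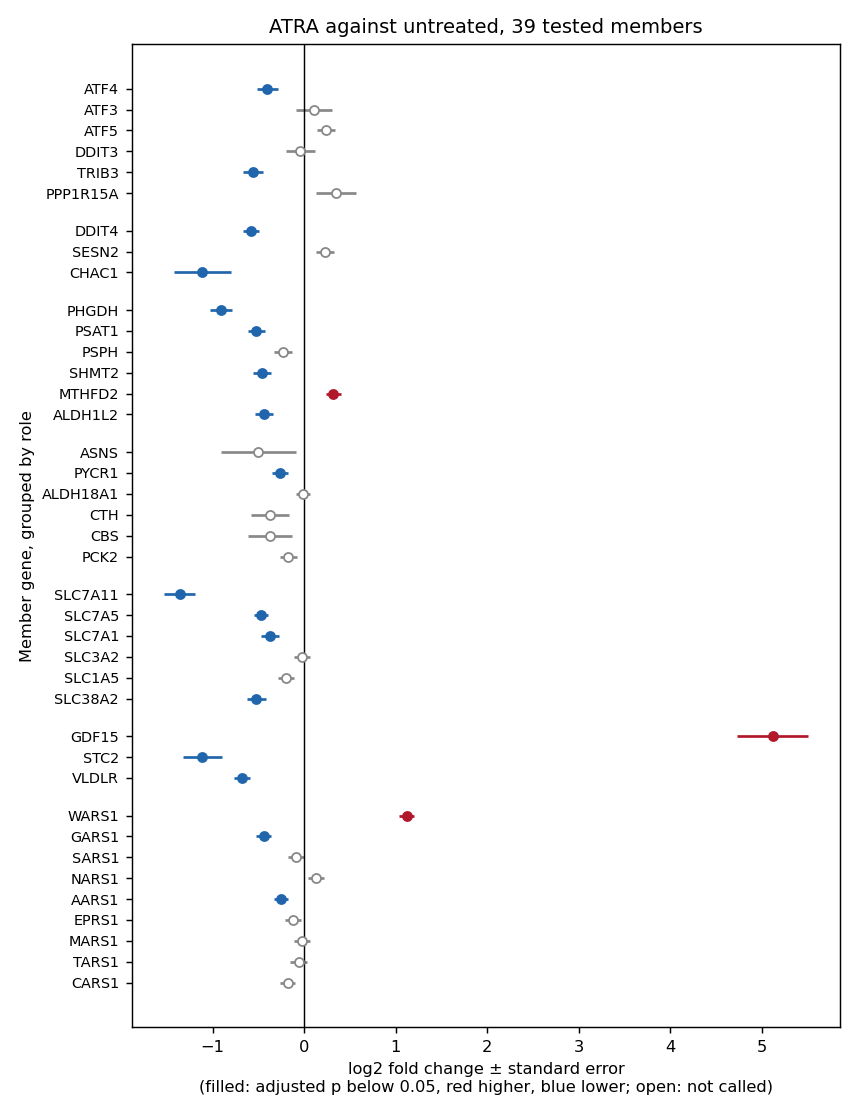
Log2 fold change with its standard error for ATRA against untreated cells (x axis), for the 39 tested members grouped by role (y axis). Filled points passed the adjusted p threshold of 0.05, blue lower and red higher; 17 lie to the left, and GDF15 stands far to the right at 5.12.

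Among the stress factors, ATF4 and TRIB3 fell with ATRA and the other 4 tested were not called. ATF4, the central factor (chr22:39519695-39522685, GRCh38), was at 513 to 541 CPM in untreated and 364 to 412 CPM in ATRA libraries. The groups did not overlap and the log2 change was −0.40 ± 0.11 (SE; edgeR adjusted p = 0.00713). The ATF4 call was lost without ATRA replicate 3 (−0.34, adjusted p = 0.0537). TRIB3, a pseudokinase that binds ATF4 and restrains its activity, was at 27.0 to 33.7 CPM in untreated and 18.4 to 22.9 CPM in ATRA libraries, a log2 change of −0.56 ± 0.11 (adjusted p = 0.000677). Values that did not pass were 0.35 ± 0.22 for PPP1R15A, 0.24 ± 0.10 for ATF5, 0.11 ± 0.20 for ATF3 and −0.04 ± 0.16 for DDIT3, which encodes the death-associated factor CHOP.

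DDIT4 and CHAC1 fell, while SESN2 was not called. DDIT4, an inhibitor of mTORC1 signalling, was at 461, 488 and 458 CPM in untreated cells and at 341, 313 and 289 CPM with ATRA. The groups were far apart, with a log2 change of −0.58 ± 0.09 (edgeR adjusted p = 4.03e-05). CHAC1, which degrades glutathione, was at 2.71, 7.46 and 6.19 CPM in untreated cells and at 2.67, 2.87 and 2.12 CPM with ATRA. Untreated replicate 1 lay inside the ATRA range, so the groups overlapped. The log2 change of CHAC1 was −1.11 ± 0.31 (adjusted p = 0.0104), and the call was lost without untreated replicate 2 (−0.85, adjusted p = 0.0724). SESN2, a leucine sensor that restrains mTORC1, changed by 0.23 ± 0.10 (adjusted p = 0.0698).

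Of the 6 serine and one-carbon enzymes, 4 fell and 1 rose. PHGDH (chr1:119648411-119744226), which opens the serine synthesis pathway, was at 248, 235 and 235 CPM in untreated cells and at 133, 135 and 114 CPM with ATRA. The ATRA level of PHGDH was 0.532 times that of untreated cells, with no overlap between groups (log2 change −0.91 ± 0.12, edgeR adjusted p = 8.55e-06). PSAT1, the transaminase of the next step, ranged from 145 to 174 CPM in untreated and from 111 to 117 CPM in ATRA libraries (−0.52 ± 0.09, adjusted p = 0.000247). PSPH, the phosphatase that releases serine, changed by −0.23 ± 0.10 and was not called (adjusted p = 0.081). SHMT2, which turns serine into glycine and a folate-bound carbon unit in mitochondria, ranged from 520 to 568 CPM untreated and from 364 to 424 CPM with ATRA (−0.46 ± 0.10, adjusted p = 0.00151). ALDH1L2, a mitochondrial formyl-tetrahydrofolate dehydrogenase, ranged from 126 to 129 and from 92.1 to 98.7 CPM (−0.44 ± 0.10, adjusted p = 0.00184). MTHFD2, the mitochondrial dehydrogenase that handles the same carbon unit, moved the other way: it ranged from 186 to 214 CPM untreated and from 241 to 266 CPM with ATRA (0.32 ± 0.08, adjusted p = 0.00447). MTHFD2 shares 27.2% of its exon length with SLC4A5 on the opposite strand, and the strand setting of the counting is not given in the sources used here.

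**Figure D2:**
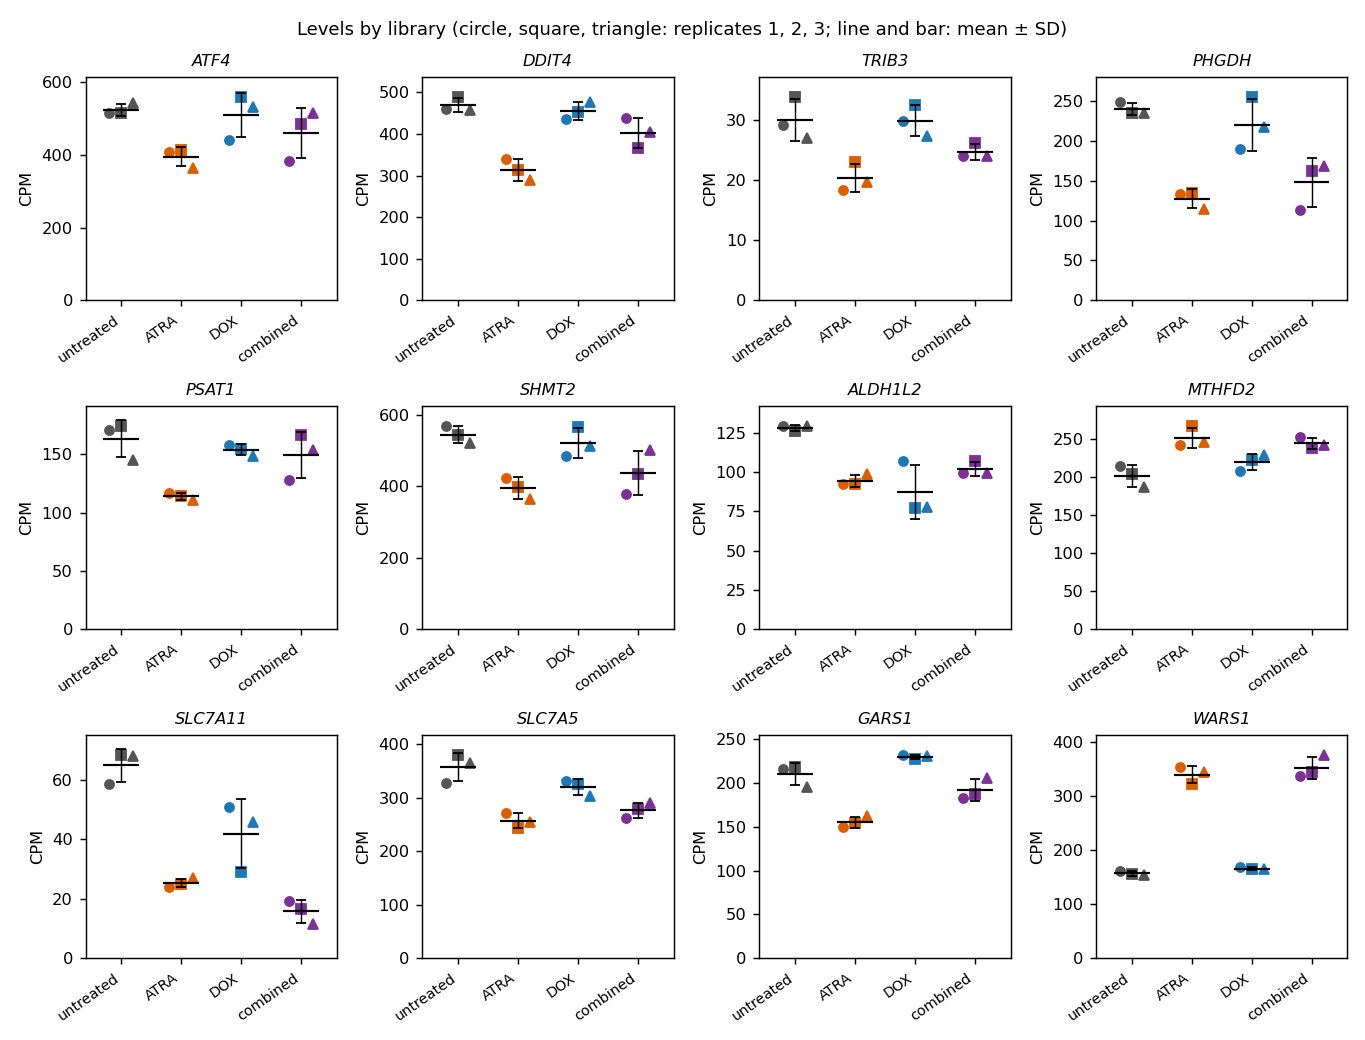
Level in CPM (y axes, starting at 0) of 12 members in each library of the 4 groups (x axes); symbols mark replicates 1 to 3, lines the group mean and bars the SD (n = 3). The group means of ATF4, DDIT4, PHGDH and SHMT2 are lowest with ATRA, MTHFD2 and WARS1 lie higher in both groups given ATRA, and SLC7A11 is lowest in combined cells.

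The other 6 amino acid enzymes mostly did not pass the test with ATRA: PYCR1 fell and the other 5 were not called. PYCR1, the closing step of proline synthesis, ranged from 101 to 114 CPM untreated and from 77.0 to 96.7 CPM with ATRA (−0.26 ± 0.09). This PYCR1 call was lost when any of 5 of the 6 libraries was left out, with values of −0.30 to −0.16. The remaining changes were −0.01 ± 0.08 for ALDH18A1 (the entry step of proline synthesis), −0.17 ± 0.09 for PCK2 (mitochondrial phosphoenolpyruvate carboxykinase), −0.37 ± 0.21 for CTH and −0.37 ± 0.24 for CBS (the transsulfuration enzymes) and −0.50 ± 0.41 for ASNS. CTH, CBS and ASNS had 672, 399 and 166 counts in the 12 libraries together, so their errors are wide. CBS also has a near-identical copy, CBSL, in the reference, which makes its counts uncertain.

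ATRA lowered 4 of the 6 amino acid transporters. SLC7A11 (chr4:138164097-138242349), the cystine importer of the cystine-glutamate exchanger, was at 58.5, 68.2 and 68.0 CPM in untreated cells and at 24.1, 25.0 and 26.8 CPM with ATRA. Every ATRA library was under every untreated one. The level with ATRA was 0.389 times the untreated level (log2 change −1.36 ± 0.17, edgeR adjusted p = 1.6e-06). SLC38A2, a sodium-coupled carrier of small neutral amino acids, changed by −0.52 ± 0.10. SLC7A5, which imports leucine and other large neutral amino acids, changed by −0.47 ± 0.08, and SLC7A1, a carrier of arginine and lysine, by −0.37 ± 0.10. Adjusted p was 0.000457 for SLC38A2, 0.000169 for SLC7A5 and 0.00536 for SLC7A1. SLC3A2, the heavy chain that pairs with both SLC7A5 and SLC7A11, was at −0.02 ± 0.09 and the glutamine carrier SLC1A5 at −0.20 ± 0.09; neither passed.

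All 3 secreted or receptor genes were called, 1 higher and 2 lower. GDF15 (chr19:18374731-18389176), a secreted stress cytokine of the TGF-beta superfamily, was at 0.386, 0.429 and 0.387 CPM in untreated cells and at 14.9, 15.7 and 12 CPM with ATRA. The untreated libraries held 4, 5 and 7 GDF15 counts, so the fitted log2 change of 5.12 ± 0.39 (edgeR adjusted p = 1.38e-09) rests on a small denominator. STC2, a secreted glycoprotein, was at 7.54, 10.3 and 10.3 CPM untreated and at 4.26, 4.89 and 4.05 CPM with ATRA (−1.11 ± 0.21, adjusted p = 0.000429). VLDLR, a lipoprotein receptor, was at 56.6, 63.8 and 60.2 CPM untreated and at 36.5, 38.1 and 38.3 CPM with ATRA (−0.68 ± 0.09, adjusted p = 3.03e-06). GDF15 thus rose while STC2 and VLDLR fell, each without overlap.

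The 9 synthetases, which charge tRNAs with their amino acids, did not move as a block. WARS1, the tryptophan enzyme, which is also known as an interferon-induced gene, was at 162, 155 and 153 CPM untreated and at 353, 321 and 344 CPM with ATRA. The ATRA libraries of WARS1 lay far above the untreated ones, 2.17 times higher (log2 change 1.12 ± 0.08, edgeR adjusted p = 3.82e-10). GARS1, for glycine, ranged from 196 to 219 CPM untreated and from 150 to 162 CPM with ATRA (−0.44 ± 0.08, adjusted p = 0.00021). AARS1, for alanine, ranged from 403 to 417 and from 326 to 372 CPM (−0.25 ± 0.08, adjusted p = 0.0239), and its call was lost when any of 5 of the 6 libraries was left out (−0.27 to −0.20). SARS1, NARS1, EPRS1, MARS1, TARS1 and CARS1 changed by −0.18 to 0.13 and did not pass.

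With DOX alone 5 of the 39 members were called, all lower, which is 12.8% beside 15.2% of all genes tested (7.10% lower and 8.08% higher). A share so near the background is no result about the members as a set, and their median log2 change was −0.04 beside 0.01 over all genes. ATF4, TRIB3, PHGDH, PSAT1, SHMT2 and the 9 synthetases were not called. The 5 were STC2, CHAC1, SLC7A11, ALDH1L2 and SLC7A1. The same untreated libraries enter this comparison and that of ATRA with untreated cells.

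SLC7A11 was at 50.9, 28.9 and 45.7 CPM with DOX, each under the lowest untreated library (log2 change −0.67 ± 0.16, edgeR adjusted p = 0.0115). ALDH1L2 was at 107, 77.2 and 77.9 CPM with DOX, with replicate 1 nearest to the untreated libraries (−0.54 ± 0.10, adjusted p = 0.00302). STC2 was at 5.01, 3.46 and 6.91 CPM (−1.05 ± 0.22, adjusted p = 0.00542). These 3 genes and SLC7A1, at 159, 124 and 124 CPM (−0.40 ± 0.10, adjusted p = 0.0104), did not overlap with the untreated libraries. CHAC1 was at 2.39, 2.36 and 4.22 CPM, overlapping with untreated replicate 1 (−1.07 ± 0.33, adjusted p = 0.0319). GDF15, at 1.27, 0.878 and 0.384 CPM, was not called (1.28 ± 0.60, adjusted p = 0.146).

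The DOX calls were sensitive to single libraries. Without DOX replicate 2 the calls of SLC7A11 (−0.40), STC2 (−0.77), SLC7A1 (−0.32) and CHAC1 (−0.96) were lost. Without untreated replicate 3, SLC7A11 (−0.63), SLC7A1 (−0.36) and CHAC1 (−0.97) were lost. CHAC1 was also lost without untreated replicate 2 (−0.81) and SLC7A1 without DOX replicate 3 (−0.34). With the share of mitochondrial ribosomal RNA as a term in the model, none of the 5 was called and 6 of the 39 members had an unadjusted p under 0.05: SLC7A11 was at −0.10, SLC7A1 at −0.14, ALDH1L2 at −0.28, STC2 at −0.67 and CHAC1 at −1.03. That share was lower in every DOX library than in every untreated one, and over all genes the same term left 0.478% called. How many of all genes had an unadjusted p under 0.05 in that fit was not counted.

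**Figure D3:**
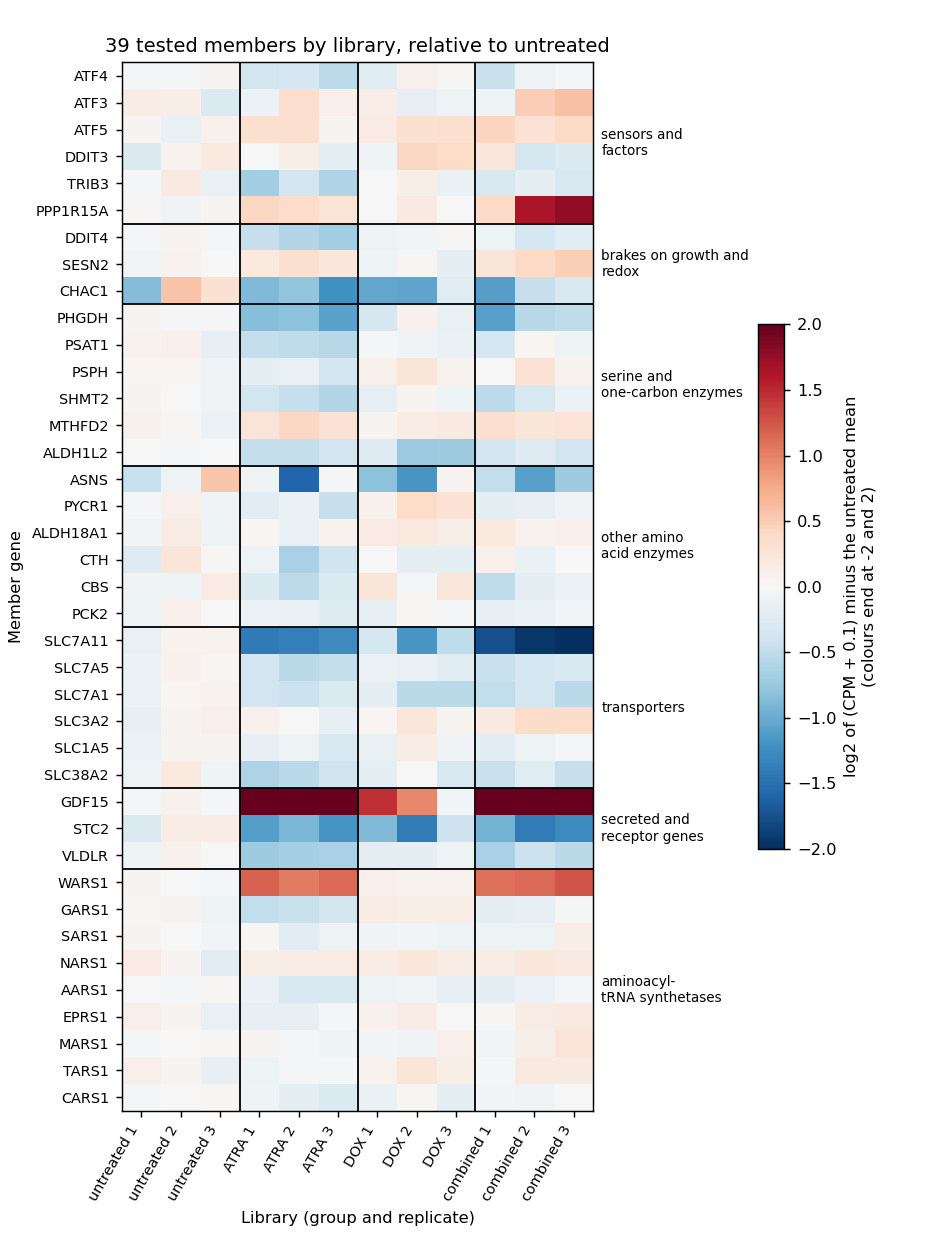
Log2 level of the 39 tested members (y axis, grouped by role) in each of the 12 libraries (x axis), as log2 of CPM plus 0.1 minus the mean of the 3 untreated libraries; colours end at −2 and 2. Blue is lower and red higher; PPP1R15A is red in combined replicates 2 and 3 more than in replicate 1, and SLC7A11 is blue in all 6 libraries given ATRA.

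Combined cells were compared with ATRA cells to ask what DOX did in the presence of ATRA. Of the 39 members, 6 rose and 1 fell, 17.9% beside 4.43% of all genes (1.89% higher and 2.54% lower), with a median log2 difference of 0.14 beside 0.00. The 6 were PPP1R15A, PSAT1, DDIT4, PSPH, SLC3A2 and GARS1, and SLC7A11 fell. The ATRA libraries are shared with the comparison of ATRA with untreated cells, so the direction of these differences and of the ATRA falls cannot be read as separate evidence. The choice of members with earlier results of these data known limits the reading of their share here too. DDIT4 was at 438, 366 and 406 CPM in combined cells (0.36 ± 0.09, edgeR adjusted p = 0.0239), above each ATRA library and below each untreated one. PSAT1 was at 128, 167 and 154 CPM (0.39 ± 0.09, adjusted p = 0.0189), PSPH at 44.9, 54.6 and 46.8 CPM (0.35 ± 0.10, adjusted p = 0.0393) and GARS1 at 183, 188 and 206 CPM (0.31 ± 0.08, adjusted p = 0.0281). All 3 lay above the ATRA libraries, which for PSPH were at 39.6, 40.2 and 34.6 CPM. SLC3A2 was at 182, 207 and 206 CPM in combined and at 170, 162 and 144 CPM in ATRA libraries (0.32 ± 0.09, adjusted p = 0.0474). SLC7A11 was at 19.1, 16.7 and 11.4 CPM, under each ATRA library (−0.66 ± 0.18, adjusted p = 0.0395).

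No call among these 7 withstood all alternatives. Those of PSAT1 (0.31 to 0.42), PSPH (0.27 to 0.40), SLC3A2 (0.26 to 0.38), GARS1 (0.26 to 0.34) and SLC7A11 (−0.69 to −0.49) were lost without any one of the 3 ATRA libraries and without combined replicate 2 or 3, where they took the values in brackets. DDIT4 was lost without ATRA replicate 2 (0.36) or 3 (0.30) and without combined replicate 1 (0.30) or 3 (0.36). PPP1R15A was lost without combined replicate 2 (0.86) or 3 (0.78). Each fit without a library also had fewer samples.

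PPP1R15A (chr19:48872392-48876057) encodes GADD34, the subunit that directs a phosphatase to eIF2 and so reverses the stress signal. It was at 20.1, 18.8 and 20.7 CPM in untreated cells, at 26.4, 25.6 and 23.9 CPM with ATRA and at 19.7, 22.5 and 20.0 CPM with DOX. Combined libraries were at 25.9, 62.0 and 68.0 CPM, replicate 1 within the ATRA range and replicates 2 and 3 far above every other library. The log2 difference from ATRA was 1.02 ± 0.21 (edgeR adjusted p = 0.00748). Without combined replicate 1 it was 1.36 ± 0.11 (adjusted p = 2.87e-08). JUN and FOS, immediate-early partners of the ATF family from the list of related factors, split in the same libraries: JUN was at 2.22, 14.4 and 17.7 CPM and FOS at 9.68, 105 and 109 CPM in combined replicates 1, 2 and 3. ATF3, itself an immediate-early gene, was at 6.13, 9.31 and 9.98 CPM there and was not called (0.23 ± 0.20). The labels name no handling difference between these replicates, and the part of any such difference in the PPP1R15A result was not tested.

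**Figure D4:**
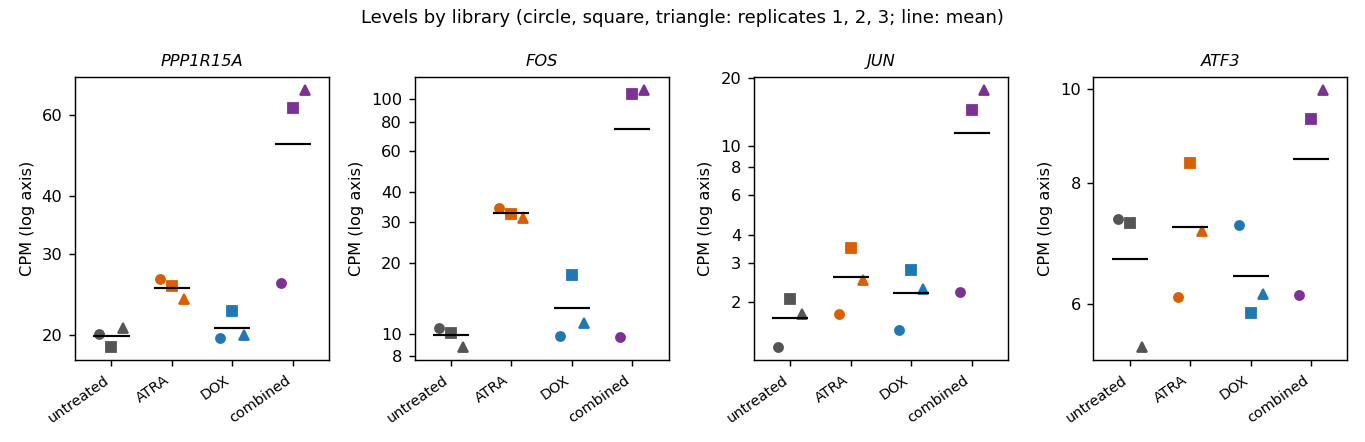
Level in CPM (log axes) of the member PPP1R15A, of FOS and JUN and of the member ATF3 in each library of the 4 groups (x axes); symbols mark replicates 1 to 3 and lines the group mean. Combined replicates 2 and 3 lie far above combined replicate 1 for PPP1R15A (62.0 and 68.0 against 25.9 CPM), FOS and JUN.

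The same split appeared to a lesser degree in other members. In combined replicates 1, 2 and 3, ATF4 was at 383, 485 and 513 CPM, PHGDH at 113, 162 and 168 CPM and SHMT2 at 379, 434 and 501 CPM. GDF15 went the other way, at 25.5, 10.4 and 12.5 CPM. Combined replicate 1 was thus within or close to the ATRA range for ATF4, PHGDH and SHMT2, whose differences from ATRA of 0.22 ± 0.11, 0.21 ± 0.12 and 0.15 ± 0.10 were not called. Leaving out combined replicate 1 gave 7 called members against ATRA, 10 against DOX and 17 against untreated cells. The shares of all genes were 5.47, 16.3 and 36%. The 7 against ATRA were not the same members as with all libraries, since the DDIT4 call was lost.

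The interaction term asks whether the ATRA effect with DOX differed from the ATRA effect without it. By edgeR's quasi-likelihood test none of the 39 members was called, beside 0.267% of all genes (0.0435% higher and 0.224% lower). An unadjusted p under 0.05 was reached by 9 members, all positive. The share of all genes at that unadjusted threshold was not counted, and 0.267% is not its counterpart. DESeq2 called 1, ALDH1L2 (adjusted p = 0.00735), which edgeR also called with the replicate number as a block (0.66, adjusted p = 0.0475), at equal depth (0.86, adjusted p = 0.00872) and with no filter on low counts (0.64, adjusted p = 0.00883). The estimate was positive in 30 of the 39, with a median of 0.21 on the log2 scale beside −0.01 over all genes. The untreated and ATRA libraries enter this term with the sign opposite to that in the ATRA comparison. The positive signs and the ATRA falls therefore cannot be read as separate evidence. A positive value on a gene that ATRA lowered means a smaller fall, or none, in the presence of DOX. ALDH1L2 had the smallest adjusted p (0.65 ± 0.14, adjusted p = 0.0596): ATRA changed it by −0.44 without DOX, and combined cells differed from DOX cells by 0.20 ± 0.10. ALDH1L2 was at 99.6, 107 and 99.2 CPM in combined cells, while untreated libraries were at 126 to 129 CPM and those with 1 agent alone at 77.2 to 107 CPM. The combined libraries of ALDH1L2 thus lay just above the ATRA libraries, overlapped with the DOX libraries and lay under the untreated ones.

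The other 8 members with an unadjusted p under 0.05 included CHAC1 (1.41 ± 0.47), PPP1R15A (0.94 ± 0.32), STC2 (0.93 ± 0.32), PSAT1 (0.47 ± 0.13) and DDIT4 (0.41 ± 0.13), with edgeR adjusted p from 0.165 to 0.283. WARS1 (−0.03 ± 0.11) and SLC7A11 (0.01 ± 0.25) had estimates near 0, with 95% intervals of −0.25 to 0.20 and −0.50 to 0.53. For SLC7A11 the DOX difference was −0.67 without ATRA and −0.66 with it. Without combined replicate 1 the interaction was called for PPP1R15A (1.28), PSAT1 (0.58) and ALDH1L2 (0.67), and without DOX replicate 1 for PSAT1 (0.50), ALDH1L2 (0.84) and SLC7A1 (0.45). With all 12 libraries and no filter on low counts, PPP1R15A (0.91, adjusted p = 0.000426), CHAC1 (1.38, adjusted p = 0.0488) and ALDH1L2 were called. The absence of calls therefore depended on single libraries and on settings of the fit.

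**Figure D5:**
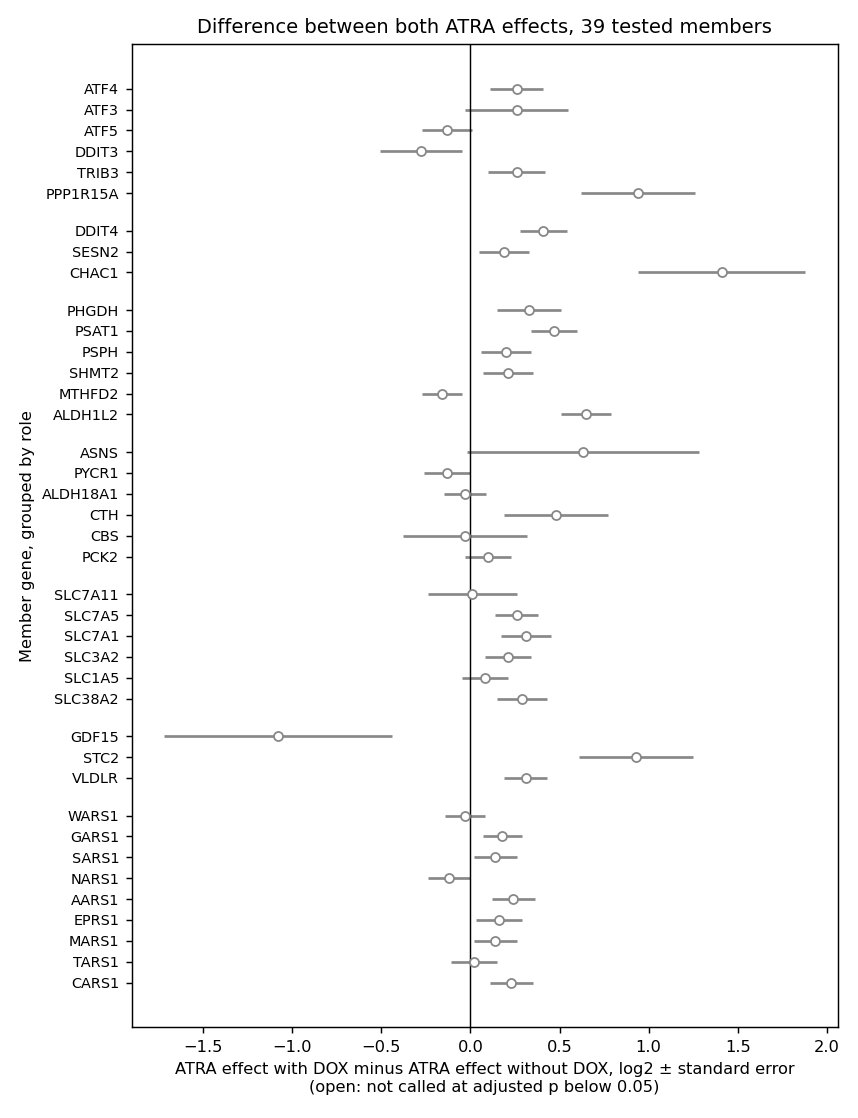
ATRA effect with DOX minus ATRA effect without DOX, as log2 with its standard error (x axis), for the 39 tested members grouped by role (y axis). All points are open because none passed the threshold, and 30 of 39 lie to the right of 0. The term shares its untreated and ATRA libraries with the comparison of ATRA with untreated cells.

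Combined cells differed from DOX cells in 9 members, 4 higher and 5 lower, which is 23.1% beside 19.0% of all genes (10.7% higher and 8.24% lower). The median log2 difference was −0.04 over the members and −0.01 over all genes. With a share so near the background, the count is no result about the members as a set. GDF15 (log2 difference 4.04 ± 0.35), PPP1R15A (1.29 ± 0.23), WARS1 (1.09 ± 0.08) and SESN2 (0.42 ± 0.10) rose. SLC7A11 (−1.35 ± 0.18), PHGDH (−0.58 ± 0.13), PYCR1 (−0.39 ± 0.10), VLDLR (−0.37 ± 0.09) and GARS1 (−0.26 ± 0.08) fell. WARS1 was at 168, 164 and 164 CPM with DOX and at 337, 344 and 375 CPM in combined cells (edgeR adjusted p = 1.39e-09). PHGDH was at 189, 254 and 217 CPM with DOX, all above the combined libraries (adjusted p = 0.00199). PYCR1 was at 112, 136 and 129 CPM with DOX and at 92.1, 94.8 and 101 CPM in combined cells, and VLDLR at 52.5, 53.2 and 56.1 against 38.4, 44.4 and 41.4 CPM. SESN2 was at 27.2, 29.5 and 25.3 against 34.2, 38.1 and 40.1 CPM. None of the 9 overlapped between the groups, which is no support apart from the calls, made on the same libraries. Here too the share without overlap over all called genes was not counted. The ATF4 difference was −0.15 ± 0.11 and the TRIB3 difference −0.30 ± 0.11, and neither was called.

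Among these, the PYCR1 call was lost without DOX replicate 2 (−0.31, adjusted p = 0.0509). That of GARS1 was lost without DOX replicate 2 (−0.26) or 3 (−0.26) and without combined replicate 1 (−0.20) or 2 (−0.25). GDF15 was at 3.54 without combined replicate 1.

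Against untreated cells, combined cells had 7 members higher and 10 lower, 43.6% beside 38.0% of all genes (19.6% higher and 18.5% lower). The median was −0.12 beside −0.01. Here too the share was near the background, and the count is no result about the members as a set. SLC7A11 showed the largest fall, to 0.247 times the untreated level (log2 change −2.02 ± 0.17, edgeR adjusted p = 9.5e-09). STC2 was at 4.75, 3.45 and 3.79 CPM (−1.22 ± 0.21), under each untreated library. CHAC1 was at 2.28, 3.61 and 4.01 CPM and overlapped with untreated cells (−0.78 ± 0.30, adjusted p = 0.0472). PHGDH (−0.70 ± 0.12), VLDLR (−0.54 ± 0.09), SLC7A1 (−0.47 ± 0.10), SLC38A2 (−0.39 ± 0.10), SLC7A5 (−0.37 ± 0.08), ALDH1L2 (−0.33 ± 0.10) and SHMT2 (−0.31 ± 0.10) also fell. GDF15 (5.33 ± 0.38), PPP1R15A (1.37 ± 0.22), WARS1 (1.17 ± 0.08), SESN2 (0.37 ± 0.09), ATF5 (0.36 ± 0.10), SLC3A2 (0.30 ± 0.09) and MTHFD2 (0.28 ± 0.08) rose. ATF5, a factor related to ATF4, ranged from 34.0 to 39.7 CPM untreated and from 45.5 to 50.2 CPM in combined cells.

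Of these 17, the CHAC1 call was lost without untreated replicate 2 (−0.51) or 3 (−0.67) and without combined replicate 1 (−0.52) or 2 (−0.86). SHMT2 was lost without untreated replicate 1 (−0.27) or 2 (−0.31) and without combined replicate 1 (−0.20) or 2 (−0.30). SLC3A2 was lost without untreated replicate 1 (0.24) or combined replicate 2 (0.28), and MTHFD2 without untreated replicate 3 (0.22). ATF4 (−0.18 ± 0.11), PSAT1 (−0.12 ± 0.09), DDIT4 (−0.22 ± 0.09), TRIB3 (−0.28 ± 0.11) and GARS1 (−0.13 ± 0.08) were not called against untreated cells, though each was called lower with ATRA alone. The interaction estimates of these 5, from 0.18 to 0.47, were not called either, so a difference between the ATRA effects was not shown for any of them.

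Across all comparisons, 14 tested members were never called: ATF3, DDIT3, ASNS, ALDH18A1, CTH, CBS, PCK2, SLC1A5, SARS1, NARS1, EPRS1, MARS1, TARS1 and CARS1. The counting of several genes is uncertain where exons overlap. DDIT3 shares 27.2% of its exon length with the MARS1 gene on the opposite strand, ATF5 shares 21.2% with NUP62, and SLC1A5 shares 23.4% with the antisense gene AC008622.2. PYCR1 shares 15.6% with the antisense gene AC145207.4 and 14.1% with MYADML2 on the same strand. DDIT4 shares 41.2% with the antisense gene DDIT4-AS1, for which 0 counts were found.

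Related pathway genes were counted from lists in the same fit, in ATRA against untreated cells, where 28.9% of all genes were called; a list is said to be led by its gene with the smallest adjusted p. Of 16 genes for eIF2 kinases and eIF2 machinery, 1 rose (EIF2AK2, the double-stranded RNA sensor, 0.34 ± 0.10) and 1 fell (EIF2S3, an eIF2 subunit, −0.54 ± 0.08). The EIF2AK2 call was lost without untreated replicate 3 or ATRA replicate 3 (0.28 to 0.30, adjusted p = 0.063 to 0.0694). Of 14 other cytosolic synthetases and their scaffold proteins, 7 fell and none rose, led by FARSA (−0.41 ± 0.10). Of 16 mitochondrial synthetases tested, 1 rose (HARS2, 0.30 ± 0.11). The HARS2 call was lost in 9 of 14 alternatives, with DESeq2 (adjusted p = 0.0692) and on leaving out replicate 2 or 3 of the untreated or replicate 1 or 3 of the ATRA libraries (0.26 to 0.29) among them. Of 12 folate and methionine cycle genes tested, 6 fell and none rose, led by SHMT1, the cytosolic counterpart of SHMT2 (−0.64 ± 0.09). Of 16 other amino acid enzymes tested, 5 rose and 4 fell. OAT, which links ornithine to proline, rose by 0.79 ± 0.12, while GPT2, a mitochondrial alanine transaminase, changed by −0.90 ± 0.08 and ASS1, of arginine synthesis, by −1.02 ± 0.12.

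Of 16 other amino acid transporters tested, 8 rose and 5 fell with ATRA. SLC43A2, a carrier of large neutral amino acids like the member SLC7A5, was at 8.21, 8.74 and 9.01 CPM untreated and at 111, 92.3 and 111 CPM with ATRA (3.59 ± 0.15, edgeR adjusted p = 1.02e-13). SLC38A9, the lysosomal arginine sensor, rose by 1.04 ± 0.10, and SLC1A4 changed by −0.55 ± 0.08. Of 16 mTORC1 amino acid sensing genes tested, 5 rose and none fell, led by RRAGD (1.12). Of 15 partner and related factors, 7 rose and 2 fell, among them the rises of TFEB (0.77 ± 0.10) and XBP1 (0.46 ± 0.09). Of 21 other ATF4-linked stress genes tested, 5 rose and 4 fell: HERPUD1, of ER-associated degradation, changed by 1.71 ± 0.08 and EIF4EBP1, a translation repressor, by −0.51 ± 0.10. Of 18 ER chaperone genes of the ATF6 and XBP1 arms, 7 rose and none fell, led by EDEM1 (1.02 ± 0.10), and of 18 NRF2 targets 8 rose and 1 fell, led by FTL (0.78 ± 0.11). With DOX alone 15.2% of all genes were called. The ER chaperones had 7 higher and none lower, and the other cytosolic synthetases 5 higher and none lower. The other 9 lists had 0 to 5 called higher and 0 or 1 lower with DOX. These list counts were not repeated under the alternatives. Over all genes, the mitochondrial ribosomal RNA term left 0.478% called with DOX, and leaving out both untreated and DOX replicate 3 left 1.04%.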

How the data were processed

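The 12 libraries were made from total RNA and read as Illumina paired ends, per the labels' protocols. The authors deposited raw counts, whole numbers for each gene in each library. The tools were FastQC, STAR and HTSeq on GRCh38, per the submitters' processing notes; versions, annotation release and strand setting are not given in the sources used here. The table held 61487 identifiers and 23 empty columns. Identifiers were given symbols through a table of gene names (61369 found), and coordinates and exon lengths came from GENCODE release 29 (58312 found). Promoter sequences are from RefSeq, GRCh38.p14.

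The libraries were grouped from the labels. edgeR 4.0.16 in R 4.3.3 was run with filterByExpr (16104 genes kept), TMM scaling (factors 0.942 to 1.037) and 1 quasi-likelihood fit of all 4 groups, which left 8 residual degrees of freedom. P-values were adjusted by Benjamini-Hochberg over all genes tested and called under 0.05. Between replicates the biological coefficient of variation was 9.54%. CPM values use TMM-scaled totals, and levels per kilobase divide them by the union exon length. P-values set a difference between groups against the spread between libraries within the groups. Library totals from 2685984 to 19358619 counts, a ratio of 7.21, limit the precision for low genes, above all in DOX replicate 3.

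The members and the 11 lists of other pathway genes were chosen with earlier results of these data known. All 40 members are accounted for; at most 8 called members with the largest change in a comparison are given by library and the others by range, and at most 4 genes with the smallest adjusted p are named per list. JUN and FOS are given by library, and ATF3, ATF4, SHMT2, PSPH and SLC43A2 beyond that rule, after their values were seen. Of the 18 mTORC1 genes, 17 were matched by symbol. Alternatives were DESeq2 1.42.0, library totals without TMM, no filter on low counts, the compared groups alone, the replicate number as a block, equal depth, a left-out pair of libraries, a mitochondrial ribosomal RNA term, and each library left out in turn.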

Additional observations from a re-analysis of the deposited data

Results flagged for a closer look

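HERPUD1, an ER-associated degradation gene from the list of other ATF4-linked stress genes, responded less to ATRA when DOX was present. It was at 44.7, 46.9 and 44.7 CPM in untreated cells, at 142, 144 and 160 CPM with ATRA, at 46.6, 47.1 and 44.9 CPM with DOX and at 92.5, 84.1 and 89.9 CPM in combined cells. The ATRA effect was 1.71 ± 0.08 without DOX and 0.94 ± 0.08 with it, a difference of −0.77 ± 0.11 on the log2 scale (edgeR interaction, adjusted p = 0.00386). The difference was −0.67 and not called when all libraries were thinned to equal depth (adjusted p = 0.123). None of the 39 tested members reached the threshold in the same test.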

How the results depend on the processing

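Of 58 called member changes, each under 14 alternatives, 690 of 812 values stayed called in the same direction, 122 were no longer called and none reversed; for 159 called changes of other named genes, 333 of 2228 values were no longer called and none reversed. With DOX against untreated cells, 5 members were called, beside 15.2% of all genes. At equal depth 3 were called, beside 8.7% of all genes. With both untreated and DOX replicate 3 left out it was 1, beside 1.04%. The mitochondrial ribosomal RNA term gave 0, beside 0.478% (6 members at an unadjusted p under 0.05, a threshold at which all genes were not counted). For combined against ATRA, 7 (beside 4.43% of all genes) became 4 with library totals alone, with no filter, at equal depth and without that pair. Those fits called 3.4, 2, 3.01 and 3.85% of all genes in turn. With the ribosomal RNA term it was 3, beside 3.71%. For combined against untreated cells that term gave 11 in place of 17, with 20.9% of all genes called in place of 38.0%. The interaction, with 0 calls by edgeR, had 1 with DESeq2, 3 with no filter, 1 at equal depth and 1 with the replicate block. Over all genes these settings called 0.86, 0.527, 0.095 and 0.335%. Apart from its interaction call, the replicate block gave counts of 20, 5, 7, 9 and 18 for ATRA, DOX, combined against ATRA, against DOX and against untreated cells. The shares of all genes were 29, 14.6, 4.53, 19 and 37.8%. Of 18 same-numbered pairs 4 correlated above 0.1 (r from −0.244 to 0.267), and 3 libraries correlated best with their own number, so the numbers were not taken as pairing.

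Leaving out 1 library at a time gave 17 to 19 calls for ATRA, while 20.8 to 24% of all genes were called. For DOX it was 1 to 7, beside 3.97 to 26.1%, and for combined against ATRA 0 to 7, beside 1.58 to 5.47%. Combined against DOX gave 7 to 12, beside 13.2 to 23.6%, and against untreated cells 14 to 17, beside 26.9 to 36%. The interaction gave 0 to 3, beside 0.0599 to 4.51%. The share of all genes thus also differed between these fits. DOX had 2 calls without untreated replicate 3 (4.47% of all genes) and 1 without DOX replicate 2 (3.97%). Combined against ATRA had 2, 1 and 1 without ATRA replicates 1, 2 and 3 (2.19, 2.46 and 1.58% of all genes). It had 1 and 0 without combined replicates 2 and 3 (1.98 and 2.07%). The count of 0 had 8 members at an unadjusted p under 0.05, where the share of all genes was not counted. DESeq2 was not run on that subset. Except where a setting removes libraries, reads or genes, the cause of these shifts was not tested. Fitting the compared groups alone was not possible for the interaction, which needs all 4. Equal depth left 37 members testable.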

Other observations

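XBP1, the factor of another arm of the unfolded protein response, was higher in each treated group than in untreated cells and highest with both agents. It was at 379, 419 and 384 CPM in untreated cells, at 543, 555 and 527 CPM with ATRA, at 485, 571 and 545 CPM with DOX and at 725, 772 and 752 CPM in combined cells. The log2 change was 0.46 ± 0.09 with ATRA (edgeR adjusted p = 0.00036) and 0.44 ± 0.09 with DOX (adjusted p = 0.00384). The XBP1 call for DOX was lost with the mitochondrial ribosomal RNA term (0.31, adjusted p = 0.396) and with both untreated and DOX replicate 3 left out (0.42, adjusted p = 0.0824). The combined libraries lay above all others, with log2 differences of 0.47 ± 0.09 from ATRA (edgeR adjusted p = 0.00227), 0.49 ± 0.09 from DOX (adjusted p = 0.000281) and 0.93 ± 0.09 from untreated cells (adjusted p = 4.27e-08). OAT was at 14.4, 15.9 and 13.2 CPM untreated, 22.9, 27.1 and 25.2 CPM with ATRA, 19.9, 24.6 and 18.4 CPM with DOX and 30.1, 29.5 and 33.7 CPM in combined cells, 1.11 ± 0.12 above untreated cells (adjusted p = 3.11e-07). Both genes were singled out after their values were seen.

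EDEM1 was at 126, 119 and 116 CPM untreated, 233, 238 and 260 CPM with ATRA, 138, 101 and 114 CPM with DOX and 255, 255 and 248 CPM in combined cells, so the 6 libraries with ATRA lay above the 6 without. SHMT1 was at 50.6 to 55.8 CPM untreated, 33.4 to 35.5 CPM with ATRA, 48.8 to 52.8 CPM with DOX and 37.6 to 42.0 CPM in combined cells, a fall in both groups given ATRA.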
